A study of Mus musculus with 38 samples.

Results

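The DEAD and DEAH box helicases were followed through 38 mouse Affymetrix arrays as the probe sets whose mapped gene symbol is Ddx or Dhx followed by a number, with Ddx3x and Ddx3y left out. The rule found 45 genes among the 15644 genes with a probe set of their own, and 39 of the 45 were bright enough to be tested. The study profiled RNA from mice of a mixed strain background (c57/bl6j, FVB and Swiss-Webster) by translating ribosome affinity purification, a method that pulls down tagged ribosomes from 1 cell type and reads the RNA bound to them. The tumour arrays, 18 in number, came from the Recruited, Pdgf Cre and Pdgf tumours, as ribosome-bound RNA of their Olig2 cells and as RNA of the whole tumour, with 3 arrays per model and RNA type. The other 20 arrays came from the cortex of adult mice without tumours, and held bound RNA of Olig2 cells, oligodendrocyte progenitors (Pdgfra line), mature oligodendrocytes (Cnp line), astrocytes (Aldh1l1 line) and neurons (Snap25 line), with 3 arrays each, and total cortex RNA, with 5 arrays. How the 3 tumour models were induced, what the Cre acts on, and whether tumours were pooled is not given in the sources used here; cortical cell samples were pools of mice. All tumour arrays belong to one labelled dataset and all cortex arrays to the other, so dataset and tumour cannot be told apart in any comparison of the 2. Arrays of a group are counted as replicates, and nothing says that each came from separate animals, so p-values measure the spread between arrays.

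DEAD and DEAH box proteins are enzymes that use ATP to unwind short RNA duplexes or to strip proteins from RNA, and each is named for a run of amino acids in its core. They accompany an RNA through its whole life: members act in splicing, in export from the nucleus, in the assembly of ribosomes in the nucleolus, in translation, in decay in cytoplasmic P bodies, and in the sensing of viral RNA. Most are expressed in nearly all cells, and growing cells need those that build ribosomes.

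Values are log2 signals, made by the submitters with GCRMA and here brought to 1 scale by quantile normalization over the 38 arrays. A level under log2 50, which is 5.64, is called dim. A gene passed the test of a comparison when limma's adjusted p was under 0.05 and the difference at least 2-fold. Where 1 of the 2 group means was dim, "at least" marks a fold taken from the bright mean over the dim limit; where both were dim, there is no fold. The 12 groups each had a lowest deposited value of their own, so levels under the limit are not ranked between groups. The model uses 1 spread per gene for all groups, while the median SD of a gene within a group ranged from 0.0304 in neurons to 0.453 in Recruited total RNA. Marker sums here and below are the log2 of a list's summed linear signals, so the brightest markers weigh most. Array 3 of Recruited total RNA stood apart: its correlation with the rest of its group was 0.883, and its sum of dividing-cell markers was 6.74 against 12.38 and 12.52 in the other 2. Its sum of neuronal markers was 16.30 against 14.94 and 14.87, and that of progenitor markers 10.83 against 14.09 and 13.84. Microglial markers summed to 12.83 there, against 15.68 and 14.64. All 7 neuronal markers were above the dim limit in neurons, and all 3 markers of the oligodendrocyte lineage in every group of Olig2 cells. Markers of other types were present too: in progenitors 6 of 7 neuronal and 6 of 6 mature oligodendrocyte markers were above the limit, beside 5 of 5 progenitor markers, and in mature oligodendrocytes 6 of 7 neuronal markers. Olig2 cells of the cortex had 6 of 7 neuronal and 5 of 6 astrocyte markers above it. In bound RNA of Recruited tumours these were 5 and 6, of Pdgf Cre 4 and 2 and of Pdgf 3 and 2. Astrocytes had 4 of 7 neuronal markers above it. In whole tissue, fewer cells of a type and less RNA per cell cannot be told apart. The mean gap between the 3′ and 5′ actin probe sets was widest in progenitors, at 6.51, against 4.53 in cortex total RNA. Its part in the differences of progenitors from cortex was not tested.

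Of the 45 helicases, 25 had a mean above the dim limit in all 12 groups. The 6 genes Ddx4, Ddx19b, Ddx60, Dhx29, Dhx38 and Dhx58, were above it in none. By role, 14 members act in ribosome assembly and all 14 were tested. Splicing helicases numbered 11, with 10 tested, and 6 act in mRNA export, translation and decay, with 4 tested. Mitochondrial helicases numbered 2, both tested, and the 2 RNA sensors, Ddx60 and Dhx58, were both dim. The remaining 10 have other roles, and 9 of these were tested. Ddx1, Ddx47 and Ddx51 passed in none of the comparisons of 1 group, or mean of groups, with another. The matching shares of all genes were not counted, so these numbers describe the helicases and do not set them apart from other genes.

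**Figure D1:**
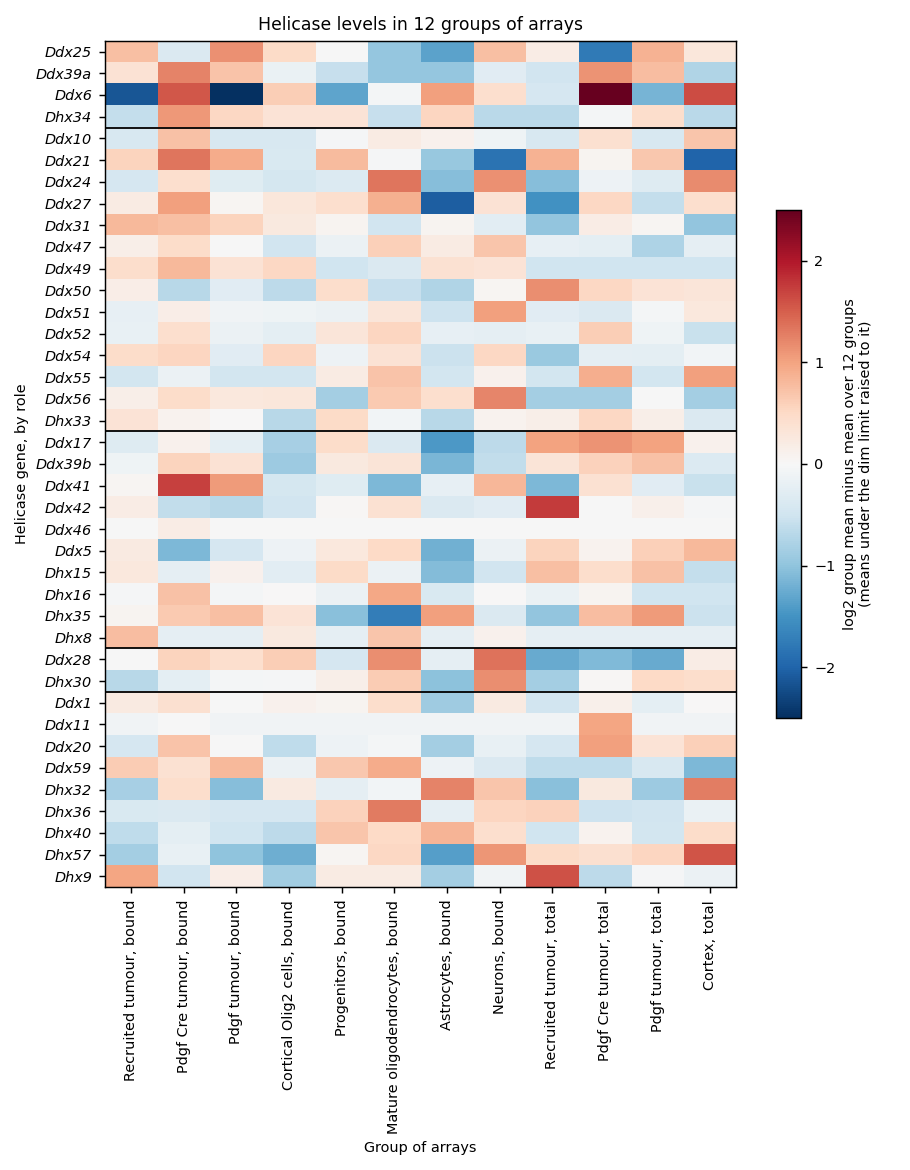
Columns are the 12 groups and rows the 39 tested helicases, ordered by role (from the top: export, translation and decay; ribosome assembly; splicing; mitochondria; other). Colour gives the log2 group mean minus that gene's mean over the groups, with dim means raised to the limit, and Ddx6 has the widest range, with its highest mean, 11.13, in Pdgf Cre total RNA and its lowest, 5.69, in Pdgf bound RNA.

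Between tumour models in ribosome-bound RNA, 13 of the 39 helicases passed in at least 1 of the 3 pairs of models, where 44.1% of all tested genes did. Of these 13, Ddx6, Ddx10, Ddx11, Ddx46 and Ddx55 passed as higher in Pdgf Cre in all 4 of its comparisons with the other models, 2 in bound and 2 in total RNA, as did 2.5% of all genes. Ddx11 and Ddx46 entered the tests only through Pdgf Cre arrays, so that they had to differ. They are no support for this count, nor for the count over any pair or the counts of Pdgf Cre against another model. Ddx25 passed as lower in all 4, as did 1.72% of all genes. With dim means raised to the limit, Ddx6 alone remained higher in all 4 (1.41% of all genes) and Ddx25 lower (0.806%); Ddx46 was dim in total RNA of every model. The pairs share groups, so these are not independent counts. In Pdgf Cre against Pdgf tumours 7 of 39 passed, 6 higher and 1 lower, where 16.6% of all 9799 tested genes passed, 7.77% higher and 8.87% lower. On the deposited scale the split was 6 higher and 2 lower. The median difference of the helicases was 0.41, with 31 of 39 above 0, and the median of all tested genes was 0.00; without the added normalization the medians were 0.13 and -0.21, and with spike-in scaling 0.56 and 0.23. In Recruited against Pdgf Cre tumours 13 passed, 4 higher and 9 lower, a share of 33.3%, where 34.5% of all genes passed, 17.5% higher and 17% lower. The medians were -0.44 for the helicases and -0.02 for all genes, and the split was 6 higher and 7 lower on the deposited scale and 2 higher and 14 lower with spike-in scaling. In Recruited against Pdgf tumours 4 passed, 1 higher and 3 lower, where 25.8% of all genes passed, 12.8% higher and 13% lower; on the deposited scale it was 3 higher and 1 lower. With dim means raised to the limit, 4 helicases passed in Pdgf Cre against Pdgf, where 9.27% of all genes did, 3 in Recruited against Pdgf (16.2% of all genes) and 10 in Recruited against Pdgf Cre (23.8%).

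**Figure D2:**
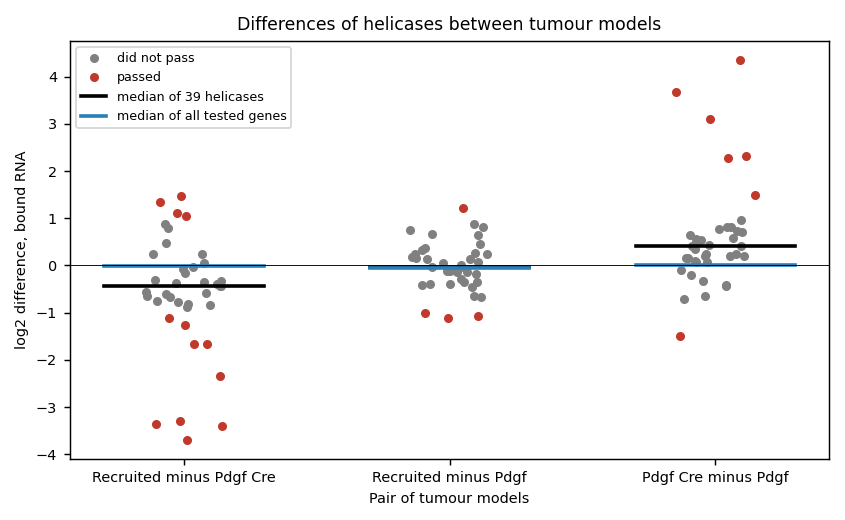
Each point is 1 of the 39 tested helicases, and the y axis is its log2 difference in bound RNA between the 2 models named on the x axis; red points passed the test. The black bar, the median of the helicases, lies at -0.44, -0.03 and 0.41 from left to right, beside -0.02, -0.05 and 0.00 for all tested genes (blue bar).

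Other features of these arrays differed between the models along with the helicases. The log2 of the summed signal of 8 dividing-cell markers in bound RNA ranged from 10.18 to 12.26 in Recruited, from 12.99 to 13.43 in Pdgf Cre, from 11.55 to 12.14 in Pdgf tumours and from 9.09 to 9.60 in cortical Olig2 cells. All 8 were above the limit in each tumour model and 4 in cortical Olig2 cells. Astrocyte markers summed to between 13.87 and 14.11 in Recruited bound RNA, with 6 of 6 above the limit. The corresponding sums were 8.80 to 9.09 in Pdgf Cre, 8.74 to 9.28 in Pdgf and 12.57 to 12.73 in cortical Olig2 cells. Mature oligodendrocyte markers summed to 14.99 to 16.73 in Recruited, 11.48 to 12.72 in Pdgf Cre, 11.91 to 12.46 in Pdgf and 16.28 to 16.29 in cortical Olig2 cells. Their part in the helicase differences was not tested.

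Ddx6, the helicase of P bodies that represses translation and helps to remove the cap of an mRNA before decay, had the largest difference between models in bound RNA. In bound RNA its log2 levels were 5.96, 8.13 and 5.0 in Recruited, 10.87, 9.49 and 9.80 in Pdgf Cre, and 4.96, 5.17 and 6.95 in Pdgf tumours. All 3 Pdgf Cre arrays lay above the 6 of the other models, and 2 arrays of Pdgf and 1 of Recruited were dim. In total RNA the levels were 7.55, 8.91 and 7.79 in Recruited, 11.30, 11.11 and 10.97 in Pdgf Cre, and 7.42, 6.79 and 7.78 in Pdgf tumours. Again the Pdgf Cre arrays did not overlap with the others. Ddx6 was 20.5-fold higher in Pdgf Cre than in Pdgf bound RNA (log2 difference 4.36 ± 0.58 SE, limma adjusted p = 4.5e-07) and 13.9-fold higher in total RNA (3.80 ± 0.58, limma adjusted p = 3.4e-06). Recruited tumours were 12.9-fold below Pdgf Cre tumours in bound RNA (-3.69 ± 0.58, limma adjusted p = 3.2e-06) and 8.26-fold below in total RNA (-3.05 ± 0.58, limma adjusted p = 4.8e-05). These 4 calls held under every alternative run; the Pdgf Cre against Pdgf difference in bound RNA ranged from 3.95 to 4.99. Replicates differed widely within Recruited bound RNA, with a mean of 6.36 ± 1.60 (SD, n = 3).

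In the cortex Ddx6 was bright in every population. Its levels were 10.07, 9.24 and 8.0 in Olig2 cells, 7.43, 6.71 and 7.37 in progenitors, 8.60, 8.72 and 8.05 in mature oligodendrocytes, 9.53, 9.67 and 9.35 in astrocytes, 8.83, 8.90 and 9.04 in neurons, and 10.73, 10.004, 10.21, 9.38 and 10.27 in cortex total RNA. The order of the cortical bound means was astrocytes, Olig2 cells, neurons, mature oligodendrocytes and progenitors. The arrays of Olig2 cells overlapped with those of astrocytes, neurons and mature oligodendrocytes, and the progenitor arrays lay below all others. Progenitors were 7.72-fold below cortex total RNA (-2.95 ± 0.52, limma adjusted p = 9.9e-06) and mature oligodendrocytes 3.16-fold below (-1.66 ± 0.52, limma adjusted p = 0.005). The difference of mature oligodendrocytes had a limma adjusted p of 0.091 under spike-in scaling.

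Ddx10, Ddx55, Ddx46 and Ddx11 passed in the same 4 comparisons, but lay near or under the dim limit, with the other models dim. For Ddx46 and Ddx11, which entered the tests only through Pdgf Cre arrays, passing there carries no weight. Ddx10 and Ddx55 act in the nucleolus, where their yeast counterparts help to build the small and large ribosomal subunits. Ddx46 is the counterpart of a yeast helicase that opens the U2 particle at the branch site of an intron, and Ddx11 unwinds DNA and helps to hold sister chromatids together. Because these genes and Ddx6 passed in the same comparisons, the 250 bases upstream of a listed start are shown for the 3 of them used here, Ddx10, Ddx46 and Ddx55, from RefSeq's GRCm38.p6 table, 5′ to 3′ on the gene's strand, at chr9:53248113-53248362 (minus strand) for Ddx10, chr13:55634749-55634998 (plus strand) for Ddx46 and chr5:124552614-124552863 (plus strand) for Ddx55, with any match to the motifs searched in capitals.
Ddx10: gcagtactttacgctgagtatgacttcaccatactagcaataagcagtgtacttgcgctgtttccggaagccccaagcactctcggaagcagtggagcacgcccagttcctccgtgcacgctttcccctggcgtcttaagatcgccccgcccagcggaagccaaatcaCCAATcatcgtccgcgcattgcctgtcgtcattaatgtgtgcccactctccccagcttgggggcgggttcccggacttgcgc
Ddx46: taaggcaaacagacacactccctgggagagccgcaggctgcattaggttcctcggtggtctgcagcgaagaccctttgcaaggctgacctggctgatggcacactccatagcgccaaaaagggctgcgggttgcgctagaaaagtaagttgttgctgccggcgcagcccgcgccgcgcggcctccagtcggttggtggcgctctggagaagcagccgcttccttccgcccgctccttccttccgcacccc
Ddx55: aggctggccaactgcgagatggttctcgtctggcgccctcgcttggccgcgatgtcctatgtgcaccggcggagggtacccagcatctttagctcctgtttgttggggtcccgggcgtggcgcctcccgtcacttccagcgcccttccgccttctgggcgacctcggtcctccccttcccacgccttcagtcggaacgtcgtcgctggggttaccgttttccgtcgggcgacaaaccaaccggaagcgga
The motifs searched, on both strands, were the E-box CACGTG, the E2F element TTTCCCGC and the CCAAT box, CCAAT; no matches of different motifs overlapped in these windows. Only the Ddx10 window held one, a CCAAT box. The table held 51 promoters of 40 members. Of these promoters 6 (11.8%) had an E-box, 1 (1.96%) the E2F element and 22 (43.1%) a CCAAT box. The shares of all 32851 promoters of that length were 6.02%, 0.895% and 33.8%. Windows of Ddx49 overlap with each other, as do those of Dhx34, so their CCAAT boxes are counted more than once. These are descriptions of letters, and no binding was measured.

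Ddx10 had levels of 4.57, 4.60 and 4.11 in Recruited bound RNA, 7.10, 6.54 and 6.69 in Pdgf Cre and 4.39, 4.44 and 4.53 in Pdgf tumours, so that it was above the dim limit only in Pdgf Cre. In total RNA it stood at 4.82, 4.96 and 4.90 in Recruited, 6.62, 6.61 and 6.13 in Pdgf Cre and 3.80, 3.96 and 3.93 in Pdgf tumours. Cortical Olig2 cells had 4.83, 4.85 and 5.54, progenitors 6.01, 6.02 and 6.01, mature oligodendrocytes 6.36, 6.44 and 5.97, astrocytes 6.14, 6.16 and 6.13, neurons 5.91, 6.02 and 5.91, and cortex total RNA 6.81, 6.74, 6.80, 6.79 and 6.53. Ddx10 was at least 2.19-fold higher in Pdgf Cre than in either other model in bound RNA (limma adjusted p = 1.1e-12 against Pdgf) and at least 1.75-fold higher in total RNA, where the difference of Recruited from Pdgf Cre was -0.81 on the deposited scale and did not pass.

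Ddx55 showed the same order of models. Its levels in bound RNA were 2.25, 2.84 and 2.64 in Recruited, 6.01, 5.97 and 5.94 in Pdgf Cre and 2.78, 2.89 and 2.90 in Pdgf tumours, and in total RNA 2.60, 2.59 and 3.23 in Recruited, 7.33, 6.82 and 6.87 in Pdgf Cre and 2.45, 2.31 and 2.36 in Pdgf tumours. In the cortex it had 5.07, 4.65 and 5.10 in Olig2 cells, 6.35, 6.31 and 6.28 in progenitors, 6.81, 6.82 and 6.85 in mature oligodendrocytes, 4.27, 4.21 and 3.87 in astrocytes, 6.27, 6.22 and 6.15 in neurons, and 7.25, 7.46, 7.21, 7.17 and 6.56 in total RNA. Both other models were thus dim where Pdgf Cre and most cortical groups were not. Pdgf Cre exceeded each of them at least 1.25-fold in bound RNA and at least 2.58-fold in total RNA, and these bounds are what the dim levels of the other models allow.

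Ddx11 was dim in the cortex, at 2.08 in every array. In bound RNA it had 2.44, 2.35 and 2.34 in Recruited, 5.45, 6.06 and 5.69 in Pdgf Cre and 3.37, 3.48 and 3.48 in Pdgf tumours. Total RNA gave 2.46, 2.52 and 2.36 in Recruited, 6.36, 6.71 and 7.11 in Pdgf Cre and 4.78, 5.0 and 4.96 in Pdgf tumours. It was above the limit in 2 of 3 bound and all 3 total arrays of Pdgf Cre and in no other tumour array. These 5 arrays alone brought it into the tests, so that it had to differ. Pdgf Cre was at least 1.06-fold above either other model in bound RNA and at least 2.12-fold in total RNA.

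Ddx46 was above the limit only in Pdgf Cre bound RNA, at 5.83, 5.85 and 5.83, against 2.45, 2.59 and 2.58 in Recruited and 2.14, 2.18 and 2.18 in Pdgf tumours. Its levels in total RNA were 2.11, 2.11 and 2.10 in Recruited, 4.36, 4.36 and 4.35 in Pdgf Cre and 2.32, 2.33 and 2.35 in Pdgf tumours, all dim. The cortex was dim too, with 3.24, 3.27 and 3.24 in Olig2 cells, 3.56, 3.55 and 3.57 in progenitors, 4.60, 4.60 and 4.58 in mature oligodendrocytes, 2.45, 2.37 and 2.45 in astrocytes, 3.06, 3.08 and 3.06 in neurons, and 3.47 to 3.49 in total RNA. Arrays of a group lay close together. It entered the tests only through the 3 Pdgf Cre bound arrays, so that it had to differ. The fold of Pdgf Cre over either other model in bound RNA was bounded at 1.14 or more, and total RNA gave no fold.

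Ddx25, known in the mouse testis for carrying mRNA out of the nucleus of germ cells, moved the other way. Its bound levels were 9.82, 9.74 and 9.69 in Recruited, 8.97, 8.62 and 8.35 in Pdgf Cre and 10.45, 9.90 and 10.10 in Pdgf tumours. In total RNA it had 8.70, 8.80 and 10.07 in Recruited, 7.05, 7.34 and 7.34 in Pdgf Cre and 9.90, 9.74 and 9.97 in Pdgf tumours. The Pdgf Cre arrays were the lowest of the tumour arrays in each RNA type, without overlap. Ddx25 was 2.83-fold lower in Pdgf Cre than in Pdgf bound RNA (-1.5 ± 0.28, limma adjusted p = 7.9e-05) and 6.18-fold lower in total RNA (-2.63 ± 0.28, limma adjusted p = 6e-09). Recruited exceeded Pdgf Cre 2.15-fold in bound RNA (1.10 ± 0.28, limma adjusted p = 0.0013) and 3.86-fold in total RNA (1.95 ± 0.28, limma adjusted p = 8e-07). The bound call was lost under spike-in scaling (0.94, adjusted p = 0.078), and without array 3 of Pdgf Cre the difference was 0.96. Cortical levels were 9.47, 9.73 and 9.28 in Olig2 cells, 8.46, 8.93 and 9.60 in progenitors, 7.79, 7.75 and 8.60 in mature oligodendrocytes, 7.39, 7.87 and 7.75 in astrocytes, 9.86, 9.66 and 9.79 in neurons, and 9.23, 9.38, 9.02, 9.15 and 9.63 in total RNA. It was bright throughout, and the neuron and Olig2 arrays overlapped at the top of the cortical cell types. The highest progenitor array, at 9.60, lay within the range of the Olig2 arrays.

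**Figure D3:**
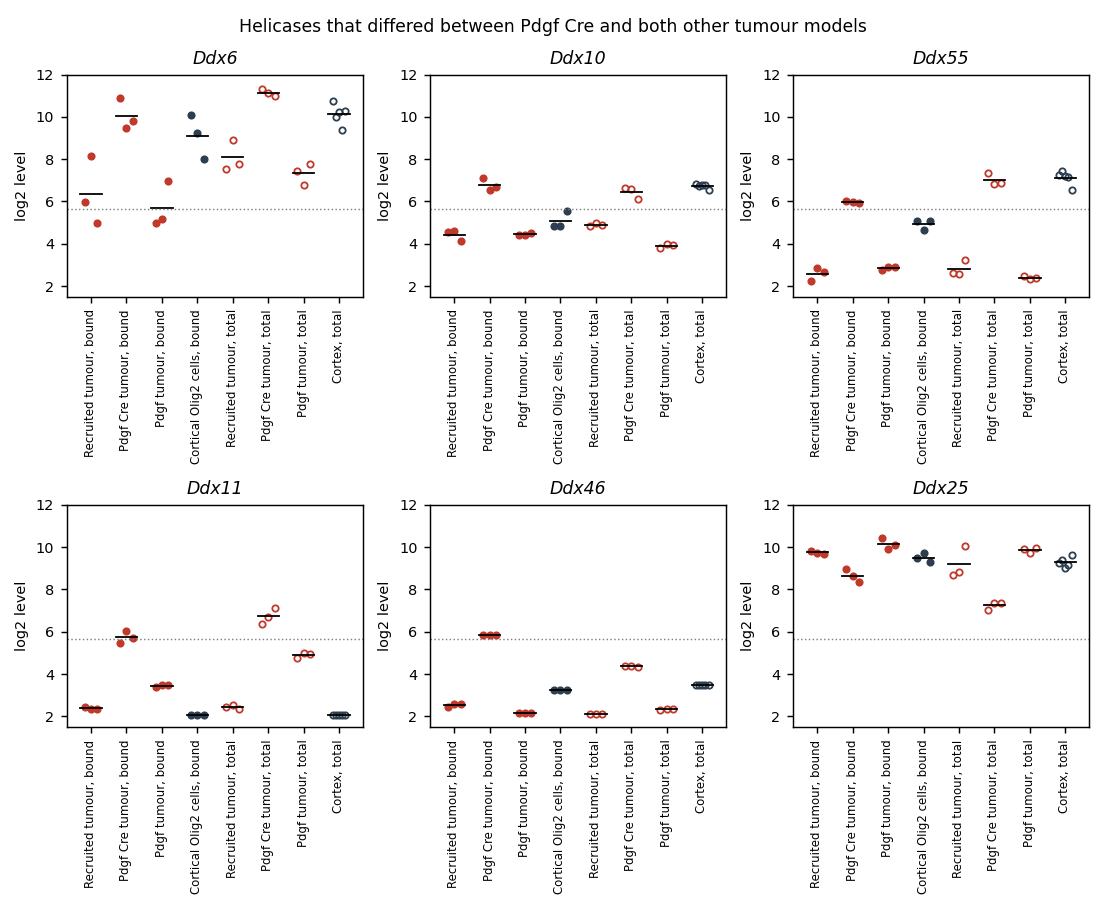
Each panel shows 1 gene with its log2 level (y axis) in every array of 8 groups (x axis); red is tumour, dark is cortex, filled points are bound RNA, open points total RNA, bars are group means and the dotted line is the dim limit. Among the models Ddx6 is highest and Ddx25 lowest in Pdgf Cre, while Ddx10, Ddx55, Ddx11 and Ddx46 lie under the limit in both other models, and Ddx46 in Pdgf Cre total RNA too.

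Dhx34, which takes part in the decay of mRNAs with a premature stop, fell in Recruited tumours. Bound levels were 5.74, 5.72 and 5.76 in Recruited, 7.30, 7.61 and 7.31 in Pdgf Cre and 6.88, 6.86 and 6.79 in Pdgf tumours, with no overlap between any of the models. Recruited was 3.17-fold below Pdgf Cre (-1.67 ± 0.18, limma adjusted p = 2.7e-09) and 2.15-fold below Pdgf (-1.10 ± 0.18, limma adjusted p = 5.3e-06). Total RNA gave 4.94, 5.01 and 5.02 in Recruited, 6.20, 6.20 and 6.46 in Pdgf Cre and 6.52, 7.19 and 6.61 in Pdgf tumours, and the Recruited arrays were again the lowest and dim. In the cortex Dhx34 had 6.84, 6.61 and 6.57 in Olig2 cells, 6.81, 6.58 and 6.64 in progenitors, 5.64, 5.61 and 5.99 in mature oligodendrocytes, 6.76, 6.76 and 7.05 in astrocytes, 5.05, 5.06 and 5.04 in neurons, and 4.03, 4.76, 4.23, 4.77 and 3.99 in total RNA. Neurons and whole cortex were dim, while Olig2 cells, progenitors and astrocytes overlapped with each other above the limit.

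Ddx41, a spliceosome helicase also linked to the sensing of DNA in the cytoplasm, had bound levels of 8.69, 7.53 and 8.09 in Recruited, 9.27, 10.27 and 9.76 in Pdgf Cre and 9.24, 8.76 and 9.32 in Pdgf tumours. Recruited arrays lay below those of both other models. Ddx41 was 3.15-fold lower in Recruited than in Pdgf Cre (-1.66 ± 0.29, limma adjusted p = 1.4e-05) and 2-fold lower than in Pdgf tumours (-1.003 ± 0.29, limma adjusted p = 0.0047). The second difference was lost when only the groups compared were fitted (limma adjusted p = 0.079), on the deposited scale (-0.91), and without any 1 of arrays 1 and 3 of Pdgf and arrays 2 and 3 of Recruited (-0.94, -0.90, -0.72 and -0.997). In total RNA the levels were 7.14, 6.68 and 6.95 in Recruited, 7.67, 9.0 and 8.61 in Pdgf Cre and 7.38, 7.58 and 8.35 in Pdgf tumours. Cortical levels were 7.37, 7.67 and 7.81 in Olig2 cells, 7.90, 7.48 and 7.86 in progenitors, 6.84, 6.76 and 7.17 in mature oligodendrocytes, 7.96, 7.63 and 7.98 in astrocytes, 8.92, 8.91 and 8.82 in neurons, and 7.50, 7.43, 7.45, 7.44 and 7.71 in total RNA. Neurons were highest and mature oligodendrocytes lowest in the cortex, each without overlap with the other groups.

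Dhx9, Ddx5, Dhx8, Ddx20 and Dhx32 also passed in Recruited against Pdgf Cre bound RNA. Dhx9, RNA helicase A, had 8.33, 9.93 and 8.66 in Recruited and 7.84, 7.39 and 7.30 in Pdgf Cre, a 2.76-fold rise (1.46 ± 0.31, limma adjusted p = 0.00016) that did not pass with only the groups compared (limma adjusted p = 0.052) or without array 2 of Recruited (0.98). Ddx5, a co-regulator of transcription and splicing, had 12.81, 12.58 and 12.12 in Recruited and 11.48, 10.98 and 10.99 in Pdgf Cre, a 2.56-fold rise (1.35 ± 0.16, limma adjusted p = 2.5e-08). Both sets of arrays were free of overlap. Dhx8, which releases the spliced mRNA from the spliceosome, was at least 2.01-fold higher, at 6.69, 6.62 and 6.64 in Recruited against 5.37, 6.03 and 5.40 in Pdgf Cre, but the difference was 0.75 with spike-in scaling (limma adjusted p = 0.099), 0.93 without array 1 and 0.95 without array 3 of Pdgf Cre. Ddx20, a part of the SMN complex that loads splicing particles, had 6.46, 6.28 and 5.52 in Recruited and 6.97, 7.45 and 7.20 in Pdgf Cre, a 2.17-fold fall that was -0.84 without array 3 of Recruited, -0.74 on the deposited scale and -0.996 without array 2 of Pdgf Cre. Dhx32 had 8.32, 6.75 and 8.63 in Recruited and 8.74, 9.53 and 9.19 in Pdgf Cre, a 2.39-fold fall (limma adjusted p = 0.025, and 0.12 with only the groups compared) that was -0.84 on the deposited scale and, without array 2 or 3 of Pdgf Cre or array 2 of Recruited, had limma adjusted p = 0.097, 0.056 and 0.24; in Pdgf Cre against Pdgf, at 8.03, 7.47 and 7.49, it was 2.81-fold higher (limma adjusted p = 0.015), which did not pass without array 2 of Pdgf Cre (0.069) or array 2 of Pdgf (0.052). In Recruited against Pdgf bound RNA, Dhx8 was at least 2.01-fold higher (limma adjusted p = 1.5e-08).

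Total tumour RNA gave larger counts than bound RNA after quantile normalization. On the deposited scale and with spike-in scaling this held only for Recruited against Pdgf. In Pdgf Cre against Pdgf total RNA 8 of 39 helicases passed, 6 higher and 2 lower, where 21.1% of all genes passed, 10.4% higher and 10.8% lower. For the Recruited and Pdgf models 10 passed, 3 higher and 7 lower in Recruited, where 34.5% of all genes passed, 16.7% higher and 17.8% lower; on the deposited scale this split was 3 higher and 4 lower. In Recruited against Pdgf Cre 17 passed, 4 higher and 13 lower, where 36.9% of all genes passed, 18.2% higher and 18.7% lower, with a split of 6 and 6 on the deposited scale. Ddx11 and Ddx46 are counted in both comparisons with Pdgf Cre and are no support for these counts. Dhx35, found in the spliceosome, was 4.13-fold lower in Recruited than in Pdgf (-2.05 ± 0.20, limma adjusted p = 5.6e-10) and 3.37-fold lower than in Pdgf Cre. Dhx9 was 3.05-fold and 4.74-fold higher in Recruited than in Pdgf and in Pdgf Cre, and Ddx42, a partner of the U2 particle, 3.04-fold and 3.39-fold higher. Dhx36, which unwinds G-quadruplexes, was 2.08-fold and 2.13-fold higher in the same comparisons. The first Dhx36 difference was 0.97 without array 2 of Pdgf, and 0.99 both without array 3 of Recruited and with spike-in scaling. Microglial markers summed to between 12.83 (array 3) and 15.68 in Recruited, 14.64 and 15.54 in Pdgf Cre and 15.21 and 15.35 in Pdgf total RNA, and their part was not tested. Without array 3 of Recruited, Ddx31, a ribosome assembly helicase, did not pass in total RNA against Pdgf (-0.71) or Pdgf Cre (-0.86), and Ddx39a, an mRNA export helicase, did not pass against Pdgf (-0.70; also -0.98 without array 1 of Pdgf); Ddx31 was picked for this after its values were seen.

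Against Olig2 cells of normal cortex, 8 of 39 helicases passed in the mean of the 3 tumour models, 6 higher and 2 lower, where 27.9% of all genes passed, 13.5% higher and 14.4% lower. The median of the helicases was 0.21 and that of all genes 0.03. Ddx21, which works on ribosomal RNA synthesis and processing in the nucleolus, had 8.5, 8.60 and 7.65 in Recruited, 9.28, 8.89 and 8.91 in Pdgf Cre, 8.71, 8.55 and 8.57 in Pdgf tumours and 7.30, 7.28 and 7.31 in cortical Olig2 cells. Every tumour array lay above every cortical one, a 2.51-fold difference (1.33 ± 0.30, limma adjusted p = 0.00038). Ddx39b, which couples splicing to mRNA export, had 12.41, 13.17 and 12.58 in Recruited, 13.52, 13.40 and 13.25 in Pdgf Cre, 13.23, 13.20 and 13.13 in Pdgf tumours and 11.997, 12.28 and 11.49 in cortical Olig2 cells. It was 2.26-fold higher without overlap (1.18 ± 0.14, limma adjusted p = 3.1e-08), and 0.96 on the log2 scale without array 3 of cortical Olig2 cells. Ddx41 was 2.60-fold higher (1.38 ± 0.23, limma adjusted p = 1.1e-05) and Dhx9 2.13-fold higher (1.09 ± 0.25, limma adjusted p = 0.00047), each with arrays that overlapped; Dhx9 did not pass without array 3 of cortical Olig2 cells (0.88) or array 2 of Recruited (0.93). Dhx33, another nucleolar helicase, was at least 1.78-fold higher without overlap. Ddx6 was 3.33-fold lower in the mean of the models (-1.73 ± 0.47, limma adjusted p = 0.0025), but Pdgf Cre arrays overlapped with cortical ones, and the call was lost with only the groups compared (limma adjusted p = 0.066) and without array 1 of cortical Olig2 cells (-1.25, limma adjusted p = 0.053). Ddx11 and Ddx55 passed with both means dim. Ddx11 entered the tests only through tumour arrays and is no support for the count of 8.

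Partners of the helicases were counted in 6 lists, each to be read against the share of all tested genes. In tumour against cortical Olig2 cells 13.5% of all genes were higher and 14.4% lower, in Recruited against Pdgf Cre 17.5% and 17%, in Pdgf Cre against Pdgf 7.77% and 8.87%, and in Recruited against Pdgf 12.8% and 13%. In tumour against cortical Olig2 cells, 4 of 18 tested ribosome assembly genes rose and 0 fell, with Wdr12 at least 1.62-fold, Ncl (nucleolin) 2.73-fold and Gar1, of the particles that modify ribosomal RNA, 2.69-fold among them. Of 9 tested genes of RNA sensing and the interferon response, 4 rose and 0 fell, among them Oasl2 at least 2.73-fold, Usp18 at least 2.39-fold and Ifit1 at least 1.32-fold. Of 14 spliceosome genes 1 rose, Snrnp200 by 2.34-fold, and 0 of 10 export genes, 0 of 7 initiation genes and 0 of 6 decay genes passed. In Recruited against Pdgf Cre, 0 ribosome assembly genes rose and 6 of 18 fell, among them Rrp1b, Nop58, at least 4.45-fold, and Bop1, 2.62-fold. Among export genes 3 rose and 4 fell, with Alyref 3.34-fold higher and Nup214 at least 1.57-fold lower; Pdcd4, an inhibitor of the initiation helicase, rose 3.63-fold. In Pdgf Cre against Pdgf, 3 ribosome assembly genes rose and 1 fell, Trim25, which activates an RNA sensor, rose 6.17-fold, and Alyref fell 4.76-fold. In Recruited against Pdgf, 0 ribosome assembly genes rose and 4 fell, Lsm1, of the decapping machinery, fell 2.74-fold and Trim25 rose 4.56-fold. Microglial markers also differed between tumour and cortical Olig2 cells, with 7 of 9 tested higher; their part in the interferon list was not tested.

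In the cortex each population was set against the same 5 arrays of total RNA. Of 39 helicases, 13 passed in Olig2 cells, 6 higher and 7 lower, where 56.1% of all genes passed, 29.5% higher and 26.6% lower (4 and 9 on the deposited scale, 4 and 11 with spike-in scaling). In progenitors 10 passed, 5 in each direction, where 48.2% of all genes passed, 24.4% higher and 23.8% lower. In mature oligodendrocytes 14 passed, 9 higher and 5 lower, where 52.9% of all genes passed, 25.2% higher and 27.7% lower (11 and 2 on the deposited scale, 14 and 1 with spike-in scaling). In astrocytes 18 passed, 6 higher and 12 lower, where 61% of all genes passed, 31.1% higher and 29.8% lower (3 and 15 on the deposited scale, 1 and 19 with spike-in scaling). In neurons 5 passed, all higher, where 28.2% of all genes passed, 13.4% higher and 14.8% lower; with spike-in scaling 9 were higher and 3 lower. The median difference of the helicases was -0.48 in astrocytes and 0.29 in mature oligodendrocytes, against 0.01 and -0.04 for all genes, and on both other scales the helicases' median minus that of all genes was -0.49 in astrocytes and 0.54 in mature oligodendrocytes.

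With dim means raised to the limit, Ddx21 had the widest range of group means after Ddx6. Its levels were 7.30, 7.28 and 7.31 in cortical Olig2 cells, 8.58, 8.60 and 8.28 in progenitors, 7.66, 7.66 and 7.65 in mature oligodendrocytes, 6.58, 7.01 and 6.65 in astrocytes, 5.80, 5.91 and 5.81 in neurons and 5.68, 5.85, 5.57, 5.67 and 5.67 in total RNA. Only neurons overlapped with total RNA, near the dim limit. Progenitors were 6.94-fold above total RNA (2.80 ± 0.33, limma adjusted p = 1.2e-08), mature oligodendrocytes 3.91-fold and Olig2 cells 3.05-fold; astrocytes, 2.08-fold, lost the call on the deposited scale (0.61), with spike-in scaling (0.03) and without array 2 of astrocytes (0.93). In total tumour RNA Ddx21 had 9.35, 9.48 and 6.84 in Recruited, 7.99, 7.67 and 7.58 in Pdgf Cre and 8.55, 8.05 and 8.47 in Pdgf tumours, where the low Recruited value is from array 3.

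Dhx57 was lower than total RNA in 4 of the 5 cell types by the test. Its levels were 5.60, 5.94 and 5.89 in cortical Olig2 cells, 6.85, 7.01 and 7.40 in progenitors, 7.55, 7.56 and 7.55 in mature oligodendrocytes, 4.83, 4.74 and 4.81 in astrocytes, 8.16, 8.06 and 8.15 in neurons and 8.63, 8.60, 8.58, 8.62 and 8.59 in total RNA. No cell type overlapped with total RNA. Astrocytes were at least 7.79-fold lower (limma adjusted p = 3.7e-17), Olig2 cells 6.93-fold, progenitors 2.87-fold and mature oligodendrocytes 2.07-fold, the last of which was lost on the deposited scale (-0.81) and with spike-in scaling (-0.70). The tumours had 6.28, 5.93 and 6.36 in Recruited, 6.95, 6.80 and 6.76 in Pdgf Cre and 5.74, 6.34 and 5.96 in Pdgf bound RNA, and 6.75, 7.47 and 8.28 in Recruited, 7.32, 7.43 and 7.54 in Pdgf Cre and 7.34, 7.79 and 7.56 in Pdgf total RNA.

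Ddx27, of the large ribosomal subunit's assembly, stood out in astrocytes, at 5.44, 5.89 and 5.42. The other cortical groups had 7.57, 7.96 and 8.40 in Olig2 cells, 8.14, 8.15 and 8.09 in progenitors, 8.20, 8.61 and 8.96 in mature oligodendrocytes, 8.10, 8.09 and 8.02 in neurons and 8.20, 8.17, 8.20, 8.43 and 7.64 in total RNA. Astrocytes were at least 5.60-fold below total RNA (limma adjusted p = 2e-08). Tumour levels were 8.5, 7.72 and 7.48 in Recruited, 8.37, 8.95 and 8.86 in Pdgf Cre and 7.75, 7.56 and 7.96 in Pdgf bound RNA, and 6.1, 6.19 and 6.26 in Recruited, 8.15, 8.23 and 8.26 in Pdgf Cre and 8.35, 5.84 and 7.14 in Pdgf total RNA. In total RNA Recruited was 4.09-fold below Pdgf Cre (-2.03 ± 0.35, limma adjusted p = 1.4e-05); the Pdgf arrays spread over the range of both.

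Dhx35 had its highest cortical mean in astrocytes, at 9.17, 8.20 and 9.13, which overlapped with Olig2 cells, and its lowest in mature oligodendrocytes, at 6.02, 6.0 and 6.19. Olig2 cells had 8.40, 8.18 and 7.87, progenitors 6.80, 6.72 and 6.76, neurons 7.45, 7.45 and 7.44 and total RNA 7.09, 7.44, 7.36, 7.11 and 7.35. Astrocytes were 2.95-fold above total RNA (1.56 ± 0.18, limma adjusted p = 3.2e-09; 0.81 with spike-in scaling) and mature oligodendrocytes 2.30-fold below it (-1.20 ± 0.18, limma adjusted p = 5.3e-07). The tumours had 8.23, 7.38 and 8.04 in Recruited, 8.47, 8.46 and 8.47 in Pdgf Cre and 8.79, 8.40 and 8.5 in Pdgf bound RNA, and 6.56, 6.99 and 6.90 in Recruited, 8.51, 8.5 and 8.70 in Pdgf Cre and 9.01, 8.86 and 8.72 in Pdgf total RNA.

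Ddx28, which helps to assemble the mitochondrial ribosome, had 7.40, 7.64 and 7.54 in cortical Olig2 cells, 6.36, 6.48 and 6.61 in progenitors, 7.94, 8.02 and 8.22 in mature oligodendrocytes, 6.67, 6.72 and 6.66 in astrocytes, 8.41, 8.25 and 8.14 in neurons and 6.86, 7.44, 6.69, 7.38 and 7.07 in total RNA. Neurons and mature oligodendrocytes were the highest and overlapped with each other. Neurons were 2.26-fold above total RNA (1.18 ± 0.22, limma adjusted p = 5.1e-05). Tumour levels were 6.94, 6.89 and 6.90 in Recruited, 7.46, 7.48 and 7.47 in Pdgf Cre and 7.66, 7.17 and 7.13 in Pdgf bound RNA, and 4.74, 4.61 and 6.20 in Recruited, 5.59, 6.16 and 5.66 in Pdgf Cre and 5.40, 5.21 and 5.16 in Pdgf total RNA.

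**Figure D4:**
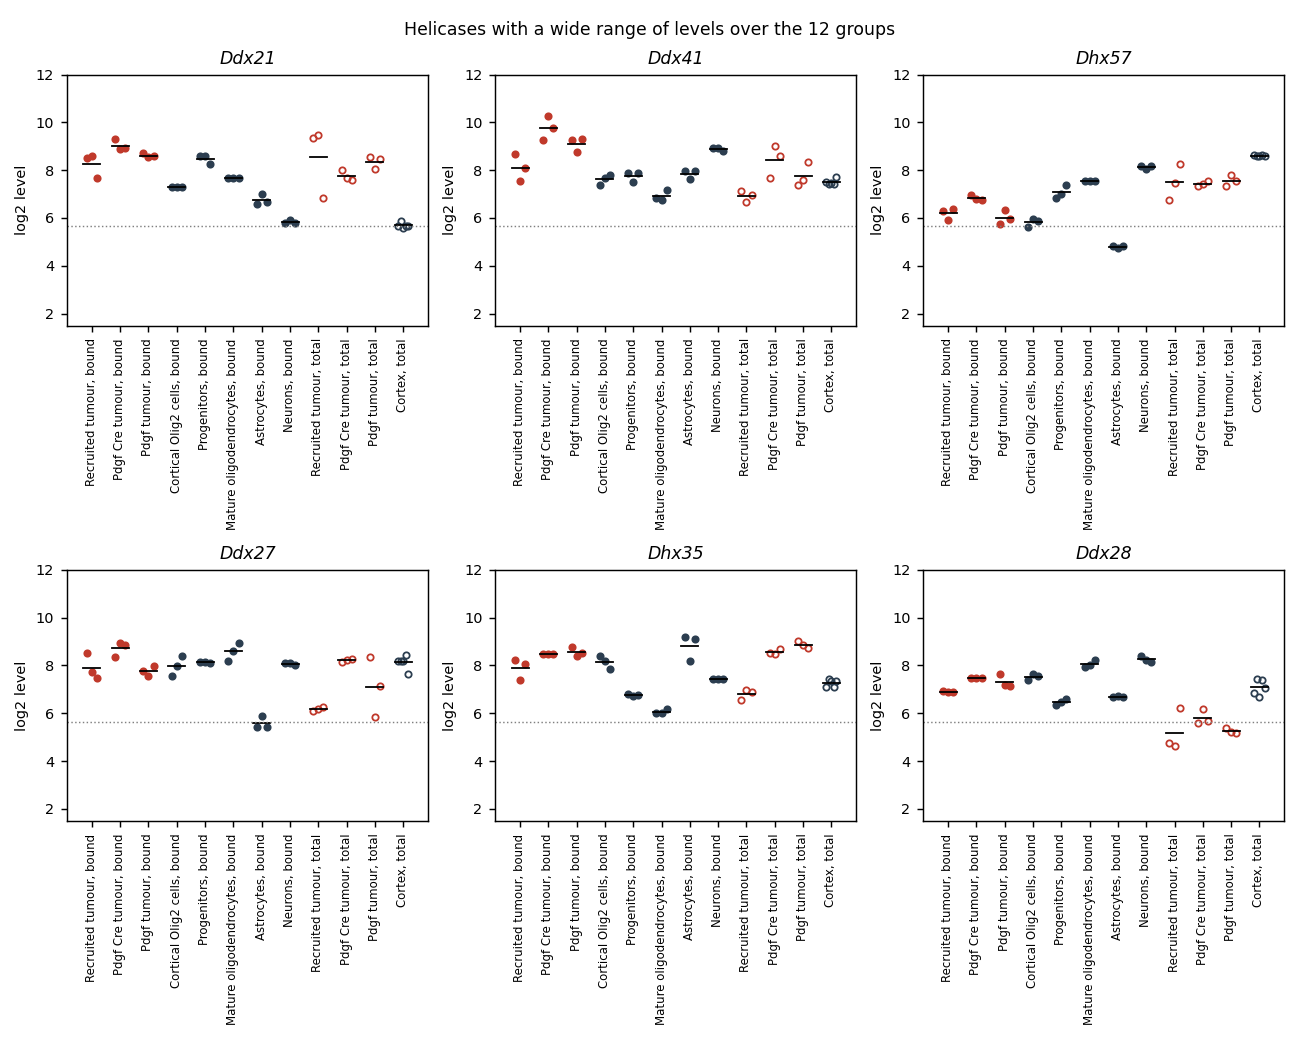
Each panel shows 1 gene with its log2 level (y axis) in every array of the 12 groups (x axis); red is tumour, dark is cortex, filled points are bound RNA, open points total RNA, bars are group means and the dotted line is the dim limit. Ddx21 is high in tumours and progenitors and near the limit in neurons and whole cortex, while Dhx57 has its highest levels in neurons and whole cortex.

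Other helicases passed in 1 or more populations. In astrocytes Ddx20 fell at least 2.75-fold and Ddx55 at least 2.80-fold, while Dhx34 rose at least 2.32-fold, Ddx56 at least 2.42-fold and Ddx31 at least 2.08-fold; with spike-in scaling Ddx56 (0.68) and Ddx31 (0.34) did not pass. Ddx56, of large-subunit assembly, was at least 4.19-fold above total RNA in neurons and at least 2.85-fold in mature oligodendrocytes. Ddx59 was 4.09-fold and Dhx36 2.78-fold higher in mature oligodendrocytes, where Dhx32 was 2.52-fold lower (-0.94 on the deposited scale and -0.83 with spike-in scaling, neither of which passed). In progenitors Ddx59 was 3.46-fold and Dhx34 at least 2.04-fold higher, and Ddx24, of ribosome assembly, 2.85-fold lower. In cortical Olig2 cells Dhx34 was at least 2.04-fold, Ddx31 at least 2.36-fold and Ddx49 at least 2.02-fold higher (Ddx49 0.86 on the deposited scale and 0.69 with spike-in scaling), and Ddx55 at least 2.80-fold, Ddx10 at least 2.13-fold and Ddx24 3.04-fold lower.

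Progenitors and mature oligodendrocytes differed in 8 helicases, 1 higher and 7 lower in progenitors, where 38.7% of all genes passed, 18.8% higher and 19.9% lower; no helicase was higher on the deposited scale (12 lower) or with spike-in scaling (14 lower). Ddx24 was 3.18-fold (-1.67 ± 0.28, limma adjusted p = 7.1e-06), Ddx28 2.99-fold, Ddx56 at least 2.85-fold, Dhx8 at least 1.91-fold and Ddx49 at least 1.09-fold lower in progenitors. Ddx50, a nucleolar relative of Ddx21, was 2.04-fold higher (1.03 ± 0.22, limma adjusted p = 0.00017), a difference of 0.26 on the deposited scale, 0.15 with spike-in scaling and 0.88 without array 3 of mature oligodendrocytes. The progenitor arrays had a gap of 6.51 between the 3′ and 5′ actin probe sets, against 3.64 in mature oligodendrocytes. Neuronal markers summed to between 14.83 and 15.004 in progenitors and 14.60 and 14.64 in mature oligodendrocytes. The part of these values was not tested.

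Whole tumour RNA differed from whole cortex RNA in 13 helicases, 6 higher and 7 lower, where 47.3% of all genes passed, 22.7% higher and 24.6% lower. On the deposited scale 9 were higher and 3 lower. Ddx11 is counted as higher, but entered the tests only through tumour arrays and is no support for this count. Ddx21 was 5.77-fold higher (2.53 ± 0.25, limma adjusted p = 3e-10), and Dhx15, which takes the spent spliceosome apart, 2.37-fold higher (1.25 ± 0.13, limma adjusted p = 9.3e-10). Dhx32 was 3.60-fold and Ddx24 3.20-fold lower. Ddx28 was at least 2.72-fold lower, a difference of -0.90 on the deposited scale that did not pass; that of Dhx15 was 0.98 with spike-in scaling. Markers of several cell types moved with these differences. Dividing-cell markers summed to between 6.74 and 13.04 over the tumour arrays and 5.21 and 5.25 in cortex, with 0 of 8 above the limit there. All 7 neuronal markers were lower in the mean of the tumours, with sums of 13.30 to 16.30 in tumours and 15.89 to 16.10 in cortex. All 9 tested microglial markers were higher, with sums of 12.83 to 15.68 in tumours and 10.59 to 11.51 in cortex. The values 6.74, 16.30 and 12.83 are all from array 3 of Recruited, whose neuronal sum lay above every cortex array. In the other tumour arrays neuronal sums were at most 14.94, dividing-cell sums at least 11.12 and microglial sums at least 14.64. The part of these markers was not tested.

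Bound RNA was also compared with total RNA of the same tumours. Bound RNA came from Olig2 cells and total RNA from the whole tumour, so cell content and binding to ribosomes cannot be told apart. Microglial markers summed to 8.57 to 12.83 in Recruited, 8.42 to 10.36 in Pdgf Cre and 9.62 to 10.63 in Pdgf bound RNA. In total RNA the sums were 12.83 to 15.68, 14.64 to 15.54 and 15.21 to 15.35. Their part was not tested. In Recruited tumours 14 helicases passed, 10 higher and 4 lower in bound RNA, where 44.3% of all genes passed, 24.1% higher and 20.2% lower. In Pdgf Cre tumours 14 passed, 10 higher and 4 lower, where 38% of all genes passed, 20% higher and 18.1% lower. Ddx46 is counted as higher there, but entered the tests only through those bound arrays and is no support for the count. In Pdgf tumours 9 passed, 4 higher and 5 lower, where 32.2% of all genes passed, 16.9% higher and 15.3% lower. These splits depend on the scale: on the deposited scale they were 1 and 7, 1 and 6, and 0 and 8, and with spike-in scaling 1 and 7, 1 and 2, and 1 and 5. The median of all tested genes moved there too, in Recruited to -0.29 on the deposited scale against 0.13 after quantile normalization. The helicases' median lay 0.04, 0.06 and -0.08 from that of all genes in Recruited, Pdgf Cre and Pdgf, and 0.04, 0.09 and -0.15 on the deposited scale. Ddx17, a relative of Ddx5, was lower in bound RNA in each model, 2.52-fold in Recruited (-1.33 ± 0.14, limma adjusted p = 1.3e-09), 2.02-fold in Pdgf Cre and 2.38-fold in Pdgf; the Pdgf Cre call was lost on both other scales (-0.80 and -0.62) and without array 3 of bound (-0.89) or array 1 of total RNA (-0.99). Ddx28 was at least 2.40-fold higher in bound RNA in Recruited, 3.18-fold in Pdgf Cre and at least 3.20-fold in Pdgf tumours, but on the deposited scale the differences were 0.67, 0.73 and 0.94 and did not pass. Ddx6 was 3.30-fold lower in bound RNA in Recruited and 3.11-fold in Pdgf tumours, with arrays that overlapped, and with only the groups compared the limma adjusted p was 0.19 and 0.080. Without array 3 of bound or array 2 of total RNA in Recruited it was 0.13 and 0.071, and without array 1 or 2 of bound or array 3 of total RNA in Pdgf tumours 0.10, 0.078 and 0.073. Dhx57 was 2.48-fold lower in bound RNA in Recruited and 2.92-fold in Pdgf tumours; the first call was lost with only the groups compared (limma adjusted p = 0.061) and without array 3 of Recruited total RNA (-0.92).

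The difference between bound and total RNA was itself compared between models. Here too cell content and binding to ribosomes cannot be told apart. It differed between Recruited and Pdgf Cre in 5 helicases, 2 higher and 3 lower, where 26.7% of all genes passed, 13.8% higher and 12.9% lower. Between Recruited and Pdgf it differed in 7, 5 higher and 2 lower, where 30% of all genes passed, 16% higher and 14% lower. Between Pdgf Cre and Pdgf it differed in 4, 3 higher and 1 lower, where 12.3% of all genes passed, 6.04% higher and 6.3% lower. On the deposited scale these were 1 and 3, 5 and 0, and 3 and 1, and with spike-in scaling 0 and 2, 2 and 0, and 0 and 0. Without array 2 of Pdgf Cre bound RNA the last count fell to 2. Among the 7 between Recruited and Pdgf, Ddx10 and Ddx11 were dim in bound and total RNA of both models. Ddx46 is counted in both pairs with Pdgf Cre, whose bound arrays alone brought it into the tests, and is no support for those counts.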

How the data were processed

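The deposited log2 values are GCRMA signals of 1-colour arrays, hybridized with biotin-labelled RNA after 2-cycle amplification; GCRMA is named per the submitters' processing notes, and its version is not given in the sources used here. Each group of arrays shares a minimum of its own, so the authors' GCRMA may have been run per group; this was not tested. All 38 arrays were quantile normalized together. The 16395 probe sets comprised 64 controls, 687 without a gene and 15644 that name 1 gene, and RefSeq holds all 45 helicase symbols unchanged. The filter kept the 9799 genes whose level passed log2 50 on 3 or more arrays and removed 5845. The number of arrays limits the precision.

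The test was that of limma (version 3.58.1, under R 4.3.3) on 1 model of 12 group means (26 residual degrees of freedom), with Benjamini-Hochberg adjustment over all tested genes in each of 20 comparisons. The method was tested on simulated data with independent arrays and 1 spread per gene for all groups. That simulation does not cover the unequal spreads of the groups or the pairing of bound and total arrays. The members, the 6 partner lists and the rules were chosen with earlier results of these data known. The partner lists and the cell type markers together held 144 genes, of which 127 were measured and 110 tested. Values of every array are given for the 8 members with the largest differences among those that passed between models in bound RNA and the 8 with the widest range of group means; elsewhere at most 5 members per direction are named, and partner genes at most 3 per list. Dhx9, Ddx5, Ddx20, Dhx32, Dhx8 and Ddx39b have their array values too, chosen after these were seen. Same-numbered bound and total tumour arrays correlated in their deviations from the group mean, from 0.266 to 0.626 over the 9 pairs, so the numbers pair them. Alternatives were the deposited scale, spike-in scaling with 18 control probe sets, no filter, only the groups compared, a replicate block and leaving out each array; leaving out both Recruited replicate 3 arrays was added after seeing the data.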

Additional observations from a re-analysis of the deposited data

Results flagged for a closer look

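Bound over total RNA differed between tumour models, by the test of that difference itself, in 16 of 117 gene and model-pair combinations. In Recruited against Pdgf Cre 12.8% of the helicases passed, in Recruited against Pdgf 17.9% and in Pdgf Cre against Pdgf 10.3%. For all tested genes these shares were higher, at 26.7%, 30% and 12.3%, so the count is not a result about the helicases. Values below are log2 differences of the bound-minus-total difference, in which cell content and binding to ribosomes cannot be told apart. For Recruited against Pdgf Cre tumours they were -1.58 for Ddx21, 1.32 for Ddx31, -1.05 for Ddx46, 1.17 for Dhx35 and -1.12 for Dhx36. For Recruited against Pdgf tumours they were -1.02 for Ddx10, 1.40 for Ddx11, 1.38 for Ddx31, 1.43 for Ddx54, 1.37 for Dhx35, -1.02 for Dhx36 and 1.52 for Dhx8. For Pdgf Cre against Pdgf tumours they were 1.13 for Ddx25, 1.65 for Ddx46, -1.52 for Ddx55 and 1.05 for Dhx34. Ddx11 and Dhx8, both in Recruited against Pdgf, passed in all 18 alternatives, and each of the others was lost in at least 1. However, Ddx11 and Ddx10 were dim in bound and total RNA of both Recruited and Pdgf tumours. Levels under the limit are not ranked between groups, so their values in this pair measure no difference. Among these groups Dhx8 was bright only in Recruited bound RNA. Ddx46 was bright only in Pdgf Cre bound RNA. Those arrays alone brought it into the tests, so both its values are no support for the count. Ddx55 was dim in Pdgf tumours. Ddx25 was lost in 11 of 17, Ddx10 in 7 of 18, and Dhx36 in 7 of 18 in Recruited against Pdgf. Ddx21 did not pass with only the groups compared (limma adjusted p = 0.24) or without array 1 or 2 of Recruited total or array 3 of Recruited bound RNA (0.064, 0.072 and 0.060). Ddx31 was lost in both pairs with only the groups compared (0.086 and 0.11), with spike-in scaling (0.15 and 0.32) and, in size, without array 3 of Recruited total RNA (0.97 and 0.92).

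In cortex total RNA 1 of the 5 arrays lay far from the other 4 for 6 of 39 helicases looked at. The same measure picked out 19.4% of all tested genes, so the helicases' 15.4% is not a result about them; for independent groups chance gives about 1 in 20. Array 5 had log2 levels of 6.53 for Ddx10 (the others 6.74 to 6.81), 7.71 for Ddx41 (7.43 to 7.50), 5.63 for Ddx49 (5.41 to 5.47) and 6.20 for Ddx56 (4.80 to 5.11). Array 2 had 7.81 for Ddx52 (7.61 to 7.64), and array 3 had 8.60 for Dhx36 (8.93 to 8.97).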

How the results depend on the processing

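Of 201 differences that passed, 139 still passed on the deposited scale, 135 with spike-in scaling, 200 without the filter, 180 with only the groups compared and 201 with the replicate block, which changed no call. Leaving out 1 array kept 1474 of 1574; leaving out both Recruited replicate 3 arrays kept 81 of 91. Model-against-model arrays share only a number, with correlations from -0.131 to 0.250. These differences turned in sign: Ddx49 in astrocytes against cortex total with spike-in scaling (-0.00012), and Ddx46 in the bound-over-total difference of Recruited against Pdgf Cre on the deposited scale (0.0462).

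Counts moved by more than 1.5 times as follows. Neurons against cortex total had 5, and 17 on the deposited scale, 12 with spike-in scaling and 8 without the filter. Progenitors against mature oligodendrocytes had 8, and 14 with spike-in scaling. Pdgf Cre bound against total had 14, and 7 on the deposited scale and 3 with spike-in scaling; Recruited bound against total had 14, and 8 and 8. The bound-over-total differences had 4 (Pdgf Cre against Pdgf), 7 (Recruited against Pdgf) and 5 (Recruited against Pdgf Cre), and 0, 2 and 2 with spike-in scaling; the first ranged from 2 to 5 over the left-out arrays. Causes were not tested. Dim genes have bounds only, and with 3 arrays per group a lone outlying array can decide a call.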
